A study of Mus musculus with 6 samples.

Results

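Chromatin remodelers are ATPases of the SNF2 family, and the subunits that work with them, that slide, evict or restructure nucleosomes. Genes were taken by symbol alone, as every gene whose symbol begins with Smarc, with Arid and a digit or with Chd and a digit, which gave 35 of the 53700 genes in each count table. They comprise 15 Smarc, 10 Arid and 10 Chd genes, of which Smarca5-ps and Smarce1-ps1 are pseudogenes. PolyA RNA was counted in germinal vesicle (GV) oocytes, which are arrested in meiotic prophase, from mice of C57BL/6N strain background. Each library was made from 10 oocytes, with 3 libraries titled Zar +/+ (wild type) and 3 titled Zar -/- (Zar1 knockout), numbered as biological replicates. ZAR1 binds RNA in oocytes, and the series is titled for a compartment near mitochondria in which oocytes keep mRNA. Animal age, the form of the Zar1 mutation and whether the pools came from different animals are not told by the labels, and p-values measure only the spread between pools.

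The name of the group holds for most members but not for all. SWI/SNF (BAF) complexes are built on the ATPase SMARCA4 (BRG1) or SMARCA2 (BRM), around a core of SMARCB1, SMARCC, SMARCD and SMARCE1 subunits. ARID1A or ARID1B marks the canonical BAF complex and ARID2 the polybromo form, PBAF. SMARCA1 and SMARCA5 are instead ISWI ATPases, and the CHD proteins are a separate ATPase family that includes CHD4, the motor of the NuRD deacetylase complex. ARID3, ARID4 and ARID5 proteins share the AT-rich interaction domain that binds DNA but are not SWI/SNF subunits. In mouse oocytes SMARCA4 is known as a maternal-effect factor, needed in the embryo after fertilization.

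Libraries held from 32126555 to 39148833 counts in genes. Zar1 fell from 387 ± 8.02 to 3.58 ± 2.28 CPM (counts scaled to a library's size, with mean ± SD and n = 3 each), and every knockout library lay far below every wild-type library. The second principal component, with 13.3% of the variance, held the knockout libraries of replicates 3 and 2 at opposite ends (scores 49.6 and -34.9), and results that turn on either are given without it. The oocyte markers summed to 17745 to 19066 CPM over wild-type libraries and 18754 to 20063 over knockout libraries, with 6 of the 10 called. Zp1, Zp2, Zp3, Figla and Nobox were higher, Nobox the most (155 ± 8.16 to 414 ± 18.5 CPM), Bmp15 was lower, and the sum is mostly Ooep, Gdf9 and Bmp15. Of 12 granulosa and cumulus markers, 8 passed the filter on low counts, Nr5a2 and Has2 were higher and Kitl lower, and the list summed to 105 to 116 CPM and 123 to 136 CPM. Most of that sum was Nr5a2 and Cyp19a1, whereas Foxl2 and Amh, which define granulosa cells, had at most 7 and 4 counts in any library, and Fshr had 47 in knockout replicate 2 and at most 8 elsewhere. Theca and stroma markers summed to 2.13 to 3.58 CPM in wild type and, without overlap, 1.03 to 1.99 CPM in knockout, and of 7 listed, 3 tested, Pdgfra was lower (28, 16 and 27 counts against 4, 1 and 0). Blood and immune markers summed to at most 2.36 CPM, with Hba-a1 and Hbb-bs at 0. The part of these markers in the results was not tested.

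The sequence signals best known for control of stored oocyte mRNA lie at the 3' end. They are the polyadenylation signal AATAAA or ATTAAA and the cytoplasmic polyadenylation element, here TTTTAT or TTTTAAT, which CPEB1 binds. The windows below show 30 bases of the annotated transcript, 5' to 3', in the sense strand only. They are examples chosen after the values were seen: the paralogs Arid4a and Arid4b, which moved in opposite directions, Smarca2 and Smarca4, of which 1 fell, and Chd7 and Chd5, CHD genes from different branches of the family that moved in opposite directions. Other paralogs that differed in call (those of Smarcc, Arid5, Chd6 with Chd7 and Chd8 with Chd9) are not shown. Capitals mark the element in the windows of Arid4a, Chd7 and Chd5 and the polyadenylation signal in the others.

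Arid4a: ggatggttgtatTTTTATgtattttttaaa

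Arid4b: caaaagctctgaAATAAAatgccatagttt

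Chd7: tagtaatgatgcTTTTAATaaaagtgaccc

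Chd5: ttggtttctgtgTTTTAATaaaccctttgg

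Smarca2: tggtactttcctAATAAAccgataacgtac

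Smarca4: aatgaagactgaAATAAAtaagtaggactt

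These are transcript sequences of GENCODE M21, on GRCm38, from the longest complete protein-coding transcript of each gene, and which 3' end oocytes use was not measured. In the Arid4a transcript the element ended 39 bases before the transcript's end and began 23 bases before the polyadenylation signal. In Chd7 and Chd5 the match was TTTTAAT and ran into the polyadenylation signal, which began 4 bases after the start of the element. Of 30 tested members with a 3' untranslated region of at least 100 bases, 7 (23.3%) held the element in the last 100 bases, against 19.6% of 12322 tested protein-coding genes with a region of that length. Counting only elements that did not overlap the polyadenylation signal left 3 members (10%) and 17.7% of those genes. Among the members that held the element were 2 of 5 that rose, 1 of 5 that fell and 4 of 20 that did not pass. The polyadenylation signal was found in 26 of the 30 members (86.7%) and in 81.7% of all. It was absent from the last 100 bases of 4 members, of which Arid5a and Smarcc2 rose and Chd1l and Chd3 did not pass.

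Per kilobase of transcript, the most abundant remodeler mRNA of wild-type oocytes was Smarcd2, a subunit of the SWI/SNF core, at 171 ± 9.08 CPM per kilobase (mean ± SD, n = 3, the unit of every level between genes below). It was followed by Smarcal1, which anneals DNA strands at stalled replication forks, at 102.4 ± 6.04. Smarcb1, the core subunit that contacts the nucleosome, had 75.4 ± 5.72. Arid1a (54.5 ± 1.60), Arid2 (53.98 ± 0.902) and Arid5b (50.6 ± 3.15) came next, with ranges of mean ± SD that overlapped between neighbours. Below them was a gap to Smarca2 (22.6 ± 1.52), Arid1b (17.8 ± 1.28), Chd4 (14.8 ± 0.456) and Smarca5 (13.8 ± 0.905), the last pair again with overlapping ranges. The 6 members with the most counts held 68.97 ± 0.552% of all counts of these genes (wild type) and 66.2 ± 2.07% (knockout), and the first 6 places in the order per length were the same in both genotypes.

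Several paralogs were nearly silent beside their abundant partner. Smarcd1 had 27, 32 and 11 counts (wild type) and 20, 8 and 25 (knockout). For Smarcd2 these were 18030, 17533 and 15170, then 17162, 16603 and 19107. The ISWI gene Smarca1 had at most 10 counts in any library, whereas its paralog Smarca5 had between 2764 and 3693. Smarca1, Smarcd3, Smarca5-ps and Smarce1-ps1 did not pass the filter on low counts, with between 1 and 16 counts per library, and were not tested. Chd2 and Arid3a also stayed low, with 0.212 and 0.463 CPM per kilobase in wild type. Chd2 shares 18.4% of its exon length with a transcript on its own strand, and Smarcd3 shares 48.2% with Chpf2 on the opposite strand, so counts of both are uncertain. Those neighbours had 56 counts and 0 counts over the 6 libraries. No other member shares more than 10% with another gene in GENCODE M21. Smarca5 and Smarce1 each have a processed pseudogene, and reads that align to more than 1 place were tallied apart from the genes.

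**Figure D1:**
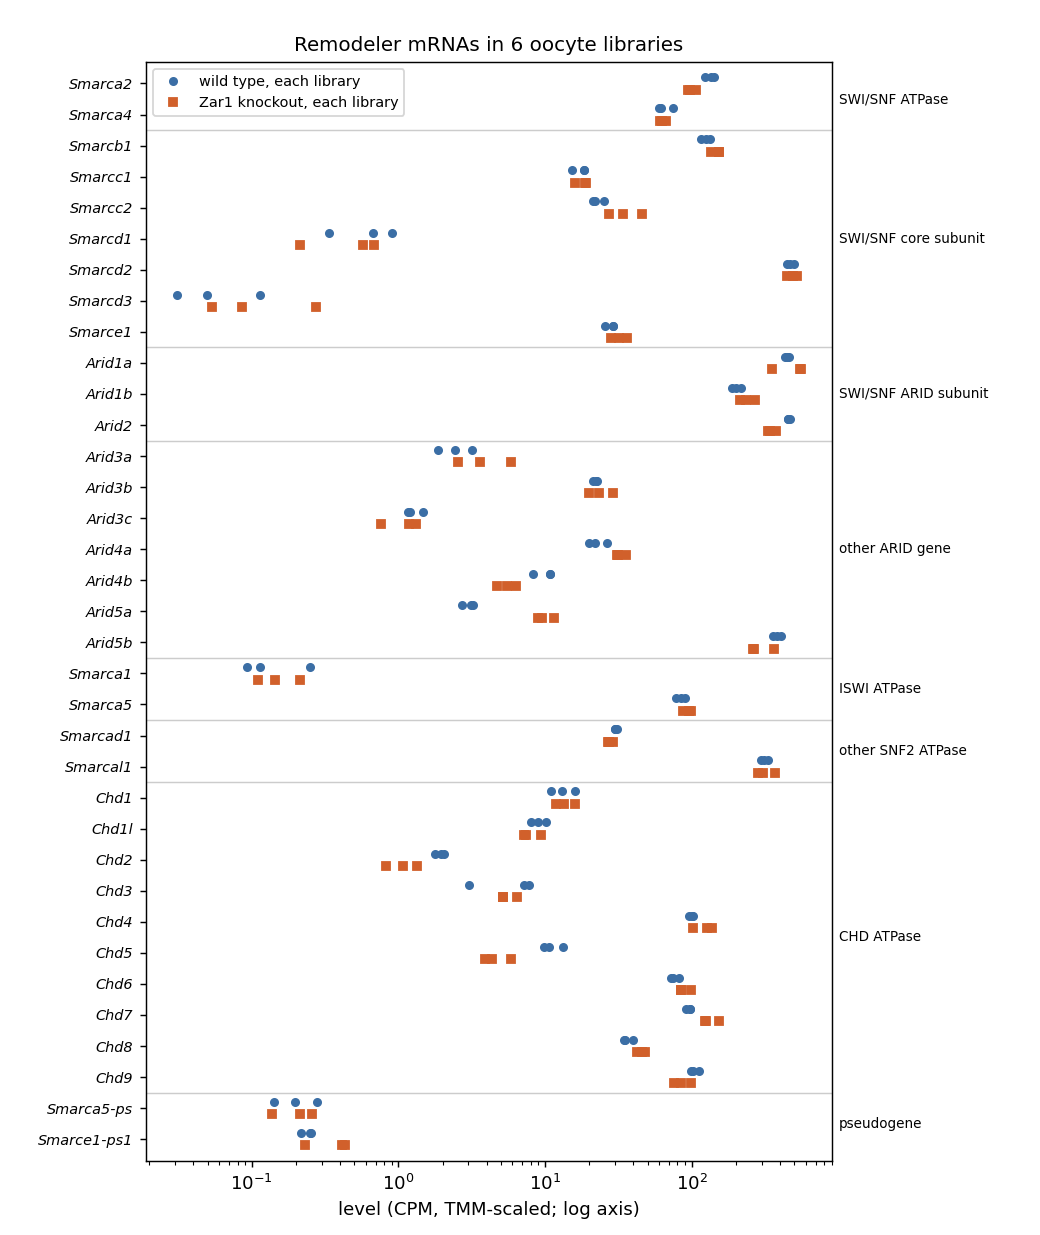
Level of each of the 35 genes in every library (CPM on a log axis; circles, 3 wild-type libraries; squares, 3 Zar1 knockout libraries), grouped by role. Levels span from under 1 CPM for Smarca1, Smarcd1 and Smarcd3 to between 333 and 555 CPM for Smarcd2, Arid1a and Arid2, and the genotypes separate most widely for Arid5a and Chd5.

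Remodeler mRNAs changed in both directions between the genotypes. Of the 31 members tested, 5 rose (Arid5a, Smarcc2, Arid4a, Chd7 and Chd8), 5 fell (Chd5, Arid4b, Smarca2, Arid2 and Arid5b) and 21 did not pass. The test was the quasi-likelihood test of edgeR, with a threshold of 0.05 on the Benjamini-Hochberg adjusted p over 16473 genes. That is 32.3% of the members, and 33.4% of all tested genes were called (14.9% higher, 18.5% lower), so the share called was near the background. Among the 22 members with a mean of at least 10 CPM 7 passed (31.8%), against 45.6% of 7714 genes of that level, a limit chosen after the values were seen. The median log2 fold change was 0.05 in the members and 0.00745 in all tested genes. Changes were mostly small, with 25 of the 31 members changed less than 1.5-fold and 2, Arid5a and Chd5, more than 2-fold. The groups did not overlap in 14 members (45.2%), 8 higher and 6 lower, against 47.8% of all tested genes. Levels are relative to the other mRNAs of a library, and fewer molecules per oocyte cannot be told apart from more of other mRNAs.

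The count of members that rose depended on single choices. It was 9 under upper-quartile scaling, 8 after a correction for transcript GC content and length, 3 without wild-type replicate 1 and 2 without wild-type replicate 3. Members that fell numbered 2 after the GC and length correction. Without knockout replicate 3, 5 rose and 6 fell, and without knockout replicate 2, 6 rose and 4 fell. Only 3 of the members that rose without knockout replicate 3 were among those named above. Smarcc2 and Chd8 dropped out, and Smarcb1 and Arid1b entered. Calls over all tested genes, in either direction, also moved from the 5499 of the main test. They numbered 5591 under upper-quartile scaling and 5124 after the GC and length correction. Without wild-type replicates 1 and 3 they were 4058 and 3826, and without knockout replicates 3 and 2 they were 5634 and 4867.

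**Figure D2:**
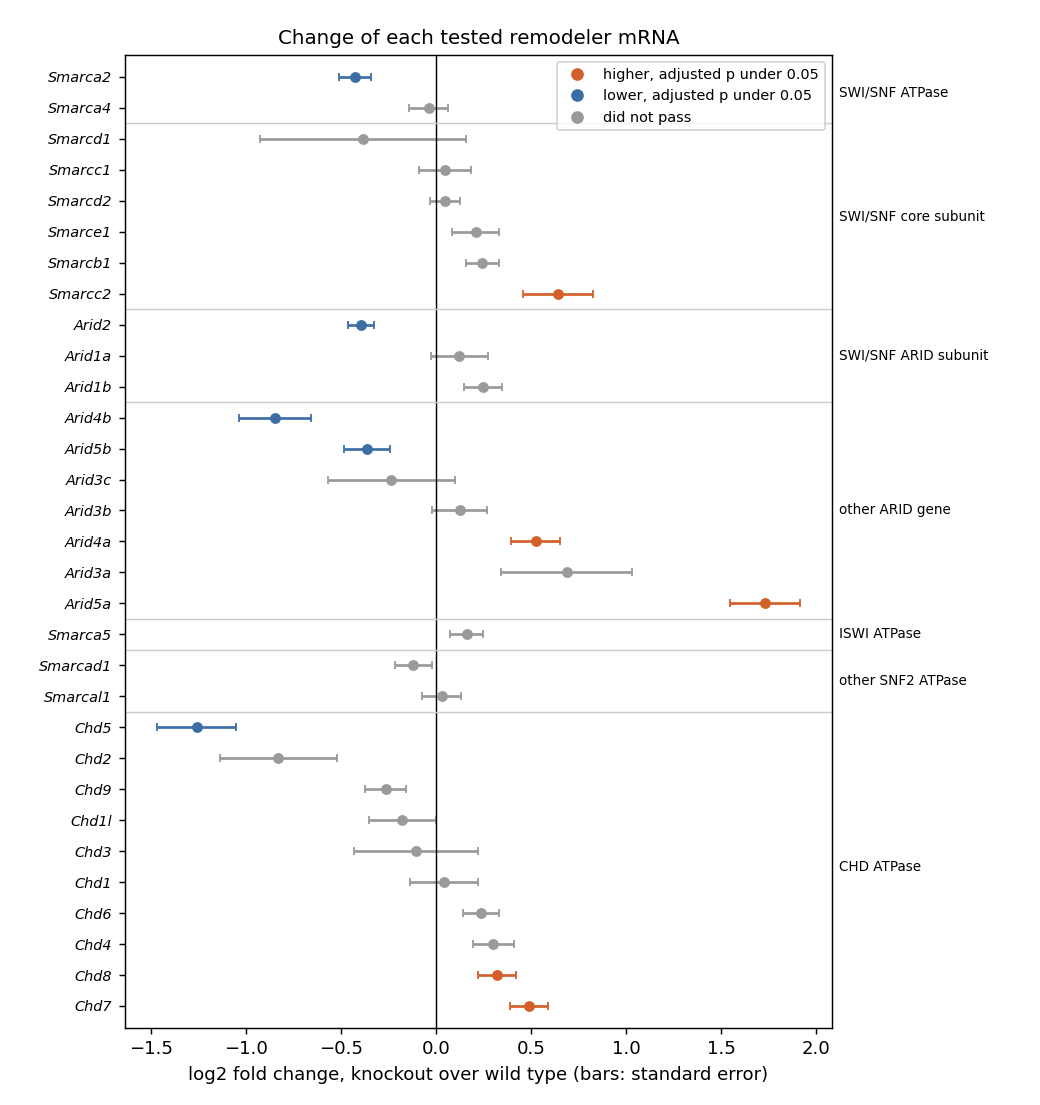
Log2 fold change of the 31 tested members, knockout over wild type, with its standard error, grouped by role (orange, higher; blue, lower; grey, did not pass the adjusted p of 0.05). Arid5a at 1.73 and Chd5 at -1.26 lie outside the rest, and the core, ARID and CHD groups each hold members on both sides of 0.

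Of the SWI/SNF ATPases, Smarca2 fell and Smarca4 did not pass. Smarca2 had 124, 136 and 142 CPM in wild-type replicates 1, 2 and 3 and 107, 97.1 and 95.1 in knockout replicates 1, 2 and 3. All knockout libraries lay below all wild-type libraries, with a log2 fold change of -0.43 ± 0.08 (SE, edgeR adjusted p = 0.00491). Smarca4 stood at 65.4 ± 8.05 and 63.5 ± 3.28 CPM (wild type, then knockout; log2 fold change -0.04 ± 0.10, adjusted p = 0.799), and its sign turned under upper-quartile scaling. The share of Smarca2 in the length-scaled sum of both went from 68.8 ± 1.92% to 62.8 ± 2.12%, with no overlap between the genotypes, an exact two-sided permutation p of 0.1, the smallest that 3 against 3 libraries allow, and 0.1625 adjusted over 13 pairs. Smarca2 remained the more abundant of the pair in every library.

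Among the core subunits, Smarcc2 rose and 5 other tested genes did not pass. Smarcc2, one of a pair of scaffold subunits, had 25.2, 21.3 and 22.1 CPM in wild type and 33.8, 27.1 and 45.99 in knockout. Every knockout library was above the wild-type range, and knockout replicate 3 was the highest. The log2 fold change of Smarcc2 was 0.64 ± 0.18 (adjusted p = 0.0260), falling to 0.41 (adjusted p = 0.0520) without knockout replicate 3, and adjusted p was 0.0915 without wild-type replicate 2 and 0.0874 without wild-type replicate 3. Its paralog Smarcc1 had 17.4 ± 1.75 and 17.9 ± 1.57 CPM, and the share of Smarcc1 in the pair went from 37.6 ± 4.44% to 29.0 ± 4.06% with no overlap between the genotypes. Smarcb1 had 115, 134 and 126 CPM in wild type and 154, 153 and 136 in knockout. Its groups did not overlap, but knockout replicate 3 was close to the highest wild-type library, and the log2 fold change of 0.24 ± 0.09 did not pass (adjusted p = 0.0605). Smarcb1 passed without knockout replicate 3 (adjusted p = 0.0223), under RLE factors (0.0480) and under upper-quartile factors (0.0254). Smarcd2 had 448, 497 and 467 CPM in wild type and 491, 445 and 523 in knockout, with mixed ranges (log2 fold change 0.05 ± 0.08, adjusted p = 0.689). Smarce1, the HMG-box subunit, had 27.8 ± 1.85 and 32.1 ± 4.11 CPM (adjusted p = 0.230).

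The subunits that tell BAF from PBAF differed in their values. Arid2, of PBAF, had 455, 455 and 468 CPM in wild type against 341, 333 and 373 in knockout. The coefficient of variation in wild type was 1.67% and all knockout values were lower (log2 fold change -0.39 ± 0.07, adjusted p = 0.00267). After the correction for GC content and length the log2 fold change of Arid2 was -0.16 (adjusted p = 0.0803). Arid1a, of BAF, had 446, 460 and 433 CPM in wild type and 555, 353 and 549 in knockout. Knockout replicate 2 lay below and the other knockout libraries above the whole wild-type range, and Arid1a did not pass (0.12 ± 0.15, adjusted p = 0.582), while without knockout replicate 2 its log2 fold change was 0.32 (adjusted p = 0.0118). Arid1b had 202 ± 14.5 and 239 ± 29.7 CPM (0.24 ± 0.10, adjusted p = 0.0955), and here knockout replicate 2 was the highest library, at 271 CPM. Arid1b passed without knockout replicate 3 (adjusted p = 0.0288) and under upper-quartile factors (0.0493). In knockout replicate 2 Arid1a made up 64.3% of the length-scaled sum of Arid1a and Arid1b, against 73.9% to 78.1% in the other 5 libraries.

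ARID genes outside SWI/SNF held the steepest rise. Arid5a, an RNA-binding and DNA-binding protein known for stabilizing cytokine mRNAs in immune cells, had 2.71, 3.21 and 3.14 CPM in wild type and 9.51, 11.5 and 9.001 in knockout. The libraries of each genotype were tightly grouped and far apart, a 3.31-fold rise (log2 fold change 1.73 ± 0.18, adjusted p = 0.000226). The counts behind the Arid5a values were 109, 113 and 102 in wild type and 332, 428 and 329 in knockout. Its paralog Arid5b had 408, 381 and 361 CPM in wild type and 264, 267 and 362 in knockout. Knockout replicate 3 lay just inside the wild-type range of Arid5b, and the call was narrow (-0.37 ± 0.12, adjusted p = 0.0472). It was lost without wild-type replicate 1, 2 or 3 (adjusted p = 0.138, 0.103 and 0.0746), without knockout replicate 1 or 2 (0.170 and 0.157), under RLE or upper-quartile factors (0.0618 and 0.0860), and after the GC and length correction (0.297). The call of Arid5b held without knockout replicate 3, and in 9 of 20 alternatives in all. Its log2 fold change ran from -0.53 to -0.17 over the alternatives. Arid5b kept most of the pair, with the share of Arid5a going from 1.08 ± 0.152% to 4.55 ± 1.15%.

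Arid4a and Arid4b, both of which encode subunits of the SIN3 histone deacetylase complex, moved in opposite directions. Arid4a had 22.0, 26.3 and 20.1 CPM in wild type and 31.7, 30.9 and 35.5 in knockout, with every knockout library higher (log2 fold change 0.52 ± 0.13, adjusted p = 0.0140). Adjusted p was 0.0575 when wild-type replicate 1 was left out and 0.0666 when wild-type replicate 3 was, which ended the call of Arid4a. Arid4b had 8.25, 10.8 and 10.8 CPM in wild type and 4.72, 6.31 and 5.53 in knockout, with every knockout library lower (-0.85 ± 0.19, adjusted p = 0.00863). After the GC and length correction the log2 fold change of Arid4b was -0.53 (adjusted p = 0.0608). The share of Arid4a in the pair was 75.8%, 73.99% and 68.5% in wild type against 88.7%, 85.2% and 88.3% in knockout, a difference of 14.6 percentage points with no overlap (exact permutation p = 0.1, the smallest possible, adjusted p = 0.1625). The Arid3 genes did not pass. Arid3b had 22.1 ± 0.862 and 24.1 ± 4.49 CPM, Arid3a 2.48 ± 0.654 and 4.004 ± 1.69, and Arid3c 1.28 ± 0.170 and 1.08 ± 0.285.

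The other tested Smarc ATPase genes, Smarca5, Smarcal1 and Smarcad1, did not pass. Smarca5, the more abundant ISWI ATPase gene here, stood at 84.5 ± 5.53 and 94.4 ± 5.84 CPM (log2 fold change 0.16 ± 0.09, adjusted p = 0.190). The GC and length correction raised the log2 fold change of Smarca5 to 0.49 (adjusted p = 0.00279). Its transcript has a GC content of 40.7%, the lowest of the tested members. Smarcal1 had 296, 333 and 310 CPM in wild type and 282, 308 and 368 in knockout, so the ranges were mixed (0.03 ± 0.10, adjusted p = 0.865). Smarcad1, which acts at replicating heterochromatin, had 30.3 ± 0.541 and 27.8 ± 1.26 CPM, without overlap between the genotypes but without passing the test (-0.12 ± 0.10, adjusted p = 0.372).

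Of the 10 CHD genes, 2 rose, 1 fell and 7 did not pass, 30% called against 33.4% of all tested genes. Chd5, a CHD3/4-type ATPase best known from neurons and male germ cells, fell the most of all members, from 9.86, 10.6 and 13.3 CPM in wild type to 4.38, 3.89 and 5.83 in knockout. Every knockout library of Chd5 lay below every wild-type library (log2 fold change -1.26 ± 0.21, a 2.40-fold decrease, adjusted p = 0.00204), on 397, 375 and 433 counts in wild type and 153, 145 and 213 in knockout. The abundant NuRD motor Chd4 had 95.6, 101.4 and 100.09 CPM in wild type and 101.8, 127.2 and 137 in knockout, with knockout replicate 1 just above the wild-type range. Its log2 fold change of 0.30 ± 0.11 did not pass (adjusted p = 0.0646), but it did under DESeq2 (adjusted p = 0.0487), under upper-quartile scaling (0.0383), with every gene of at least 1 count kept (0.0411), after the GC and length correction (0.0344) and without knockout replicate 1 (0.00940). Chd3 was low and scattered, with 7.75, 3.01 and 7.24 CPM in wild type and 5.15, 6.44 and 5.14 in knockout (adjusted p = 0.837).

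Chd7, whose human counterpart is mutated in CHARGE syndrome, had 98.1, 97.6 and 92.2 CPM in wild type and 124, 155 and 125 in knockout. The knockout libraries were all higher, replicate 2 the most (log2 fold change 0.49 ± 0.10, adjusted p = 0.00580). Chd8, a regulator of beta-catenin target genes, had 34.9, 39.5 and 34.7 CPM in wild type and 48.1, 42.5 and 45.6 in knockout, again without overlap (0.32 ± 0.10, adjusted p = 0.0345). The call of Chd8 was lost without wild-type replicate 1 or 3 (adjusted p = 0.123 and 0.141), without knockout replicate 1 or 3 (0.0979 and 0.0512), with library sizes alone (0.0520) and with every gene of at least 1 count kept (0.0821). Chd9 had 104 ± 6.81 and 86.7 ± 11.6 CPM (-0.27 ± 0.11, adjusted p = 0.0895), and the share of Chd8 in the pair Chd8 and Chd9 went from 33.0 ± 2.39% to 42.6 ± 2.802% with no overlap. Chd9 passed without knockout replicate 3 (log2 fold change -0.37, adjusted p = 0.0153). Chd6 had 76.2 ± 4.73 and 89.7 ± 8.48 CPM without overlap (0.24 ± 0.09, adjusted p = 0.0855), and passed with GC and length corrected (0.44, adjusted p = 0.0109). Chd1, known for open chromatin in pluripotent cells, had 13.3 ± 2.47 and 13.7 ± 2.06 CPM (adjusted p = 0.892). Chd1l had 9.05 ± 1.00 and 7.98 ± 1.25 CPM (adjusted p = 0.472). Chd2 had 1.94, 2.04 and 1.79 CPM in wild type and 1.35, 1.07 and 0.821 in knockout, all lower, on at most 78 counts per library (-0.83 ± 0.31, adjusted p = 0.0655). It passed with genes under a mean of 50 counts dropped (0.0456).

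Paralog balance was compared in 13 pairs that were listed for their shared place in a complex or family. The first gene's share of the length-scaled sum did not overlap between the genotypes in 8 pairs and overlapped in 5. Of all tested genes taken singly, 47.8% did not overlap, and no share over other gene pairs was computed. The pairs are not separate evidence, since 6 of the 8 contain a member already called above. For those 8 the exact permutation p was 0.1, the smallest possible, and 0.1625 adjusted over the 13 pairs, so none could pass. The share of Chd6 in Chd6 and Chd7 went from 43.5 ± 1.18% to 39.4 ± 0.785%, and that of Chd1 in Chd1 and Chd2 from 88.7 ± 1.73% to 93.4 ± 1.99%. The pair Smarcd1 and Smarcd3 is among the 8 but rests on at most 32 counts per gene and library and is not read. Shares that overlapped were those of Smarca1 and Smarca5, Smarcd1 and Smarcd2, Arid1a and Arid1b, Arid3a and Arid3b, and Chd3 and Chd4.

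**Figure D3:**
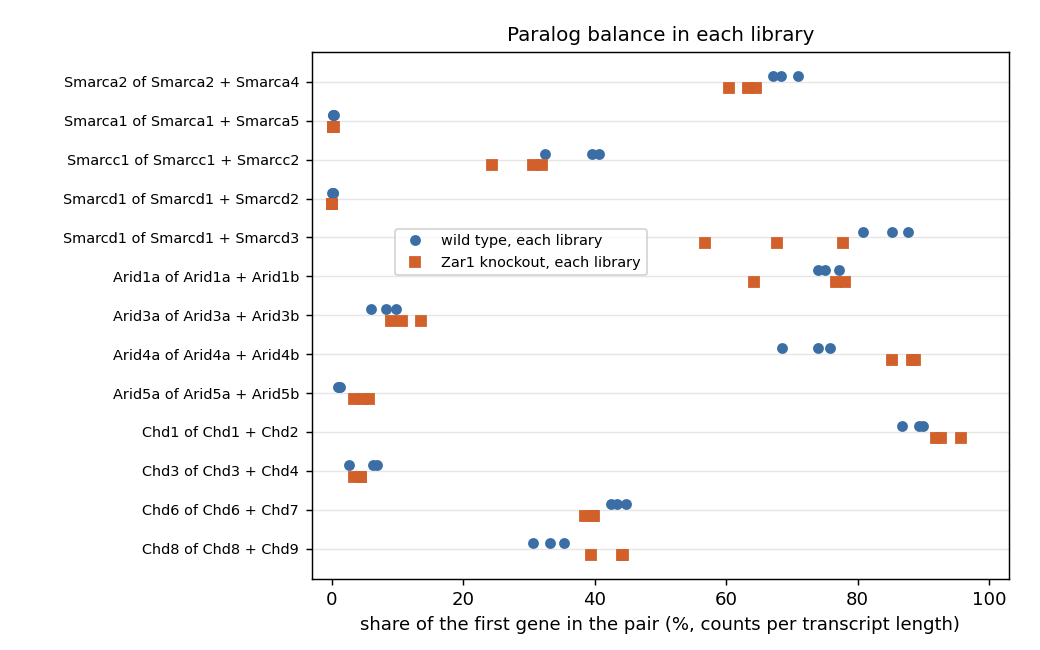
Share of the first-named gene in the summed counts per transcript length of each of 13 paralog pairs (percent; circles, 3 wild-type libraries; squares, 3 Zar1 knockout libraries). Arid4a lies at 68.5% to 75.8% in wild type and 85.2% to 88.7% in knockout, and Arid1a shows knockout replicate 2 alone at 64.3%.

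Spread between libraries was wider in the knockout for most members. The coefficient of variation was larger in knockout than in wild type for 21 of the 31 tested members, with medians of 13.4% and 7.20%. The share over all tested genes was not computed, so this is not read as particular to the members. On the second principal component of all tested genes, knockout libraries scored -34.9 to 49.6 and wild-type libraries -3.94 to 4.57. Summed over all members, the genes took 0.336%, 0.335% and 0.330% of gene counts with wild type and 0.322%, 0.304% and 0.346% with knockout, which overlapped. Chd genes together took 0.0459 ± 0.00107% in wild type and 0.0504 ± 0.00268% in knockout, where every knockout library was higher. Of their log2 fold changes 5 were positive and 5 negative, with a median of -0.03, so the sum is not read as a rise of the family. The Arid genes took 0.157 ± 0.00527% and 0.143 ± 0.0142%, and the Smarc genes 0.131 ± 0.00463% and 0.131 ± 0.00731%. Members that rose had a median transcript GC content of 51.4% and those that fell 47.4%, on 5 genes each. It was 52.9% in the 21 members that did not pass and 49.4% over tested protein-coding genes. Median transcript lengths were 5504 bases in members that rose, 7581 in those that fell and 5773 in those that did not pass. Over tested protein-coding genes the median length was 3221.5 bases.

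Genes that work with these proteins were taken from 6 lists of complex partners. Of 83 tested partners 24 rose, 20 fell and 39 did not pass, 53.0% called against the 33.4% of all tested genes. With a mean of at least 10 CPM, 55.1% of 69 partners were called, against 45.6% of all genes of that level. Their median log2 fold change was 0.09, and the share is given as a description with no test of the lists. By list it was 43.8% (SWI/SNF), 27.3% (ISWI), 60% (NuRD), 50% (INO80 and SRCAP), 58.3% (other SNF2 ATPases) and 78.6% (other ARID and SIN3). The calls in each list below are to be set beside the same 33.4% and 45.6%. The number of partners that rose was 14 without wild-type replicate 1 and 13 without wild-type replicate 3. In those fits 4058 and 3826 of all tested genes were called in either direction, against 5499 in the main test.

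Of 16 tested SWI/SNF partner subunits, 4 rose, 3 fell and 9 did not pass. Those that rose were all 3 genes of the BCL7 family of small BAF subunits and Phf10, the PBAF subunit also called BAF45A, with 38.9 ± 2.83 CPM in wild type against 72.6 ± 8.91 (log2 fold change 0.90 ± 0.11, adjusted p = 0.000431). Bcl7c went from 22.8 ± 1.63 to 49.5 ± 6.67 CPM (1.12 ± 0.12), Bcl7b from 54.9 ± 5.73 to 78.5 ± 9.78 and Bcl7a from 5.94 ± 0.536 to 9.11 ± 2.02. The call of Bcl7a (adjusted p = 0.0400) was lost without wild-type replicate 1, 2 or 3 (adjusted p = 0.0712, 0.126 and 0.113), without knockout replicate 3 (0.105), with library sizes alone (0.0529) and with the replicate block (0.0649), and that of Bcl7b with GC and length corrected (0.0725). Dpf2 and Dpf3, which take the place of Phf10 in BAF, both fell, Dpf3 from 76.1 ± 2.27 to 39.0 ± 3.99 CPM (-0.96 ± 0.10, adjusted p = 0.000164) and Dpf2 from 12.9 ± 1.05 to 6.47 ± 1.68. Actl6a, an actin-like subunit, fell from 63.9 ± 2.01 to 47.4 ± 5.91. Arid2, the PBAF subunit of the members, fell where Phf10 rose. Partner subunits that did not pass include the polybromo gene Pbrm1 (-0.13 ± 0.08, adjusted p = 0.244) and Brd7 (0.008 ± 0.07, adjusted p = 0.947).

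Among 10 NuRD partners 4 rose, 2 fell and 4 did not pass. The methyl-CpG-binding domain genes Mbd3 (13.3 ± 2.02 to 26.02 ± 2.39 CPM) and Mbd2 (22.5 ± 1.40 to 35.1 ± 4.01) and the small subunit Cdk2ap1 (8.40 ± 0.491 to 14.6 ± 1.93) rose. Mta2, at 1.21 ± 0.151 CPM in wild type, was the other that fell, and it did not pass without knockout replicate 2 or 3 (adjusted p = 0.0974 and 0.0879) or wild-type replicate 1, 2 or 3 (0.0829, 0.0848 and 0.123). Gatad2b, a scaffold that joins the complex to its ATPase, fell from 144 ± 9.92 to 94.3 ± 17.7 CPM (-0.61 ± 0.13, adjusted p = 0.00659). Of 11 ISWI partners 1 rose, 2 fell and 8 did not pass. Cecr2, the bromodomain partner known from neural tube closure, fell from 211 ± 5.74 to 132 ± 5.49 CPM and Rsf1 from 14.0 ± 0.857 to 9.31 ± 0.501, whereas Rbbp4, a histone chaperone shared with NuRD, rose from 53.4 ± 3.31 to 69.9 ± 0.840. With GC and length corrected 3 of these partners rose and 1 fell, and Rsf1 did not pass (adjusted p = 0.183).

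The INO80 and SRCAP family, which exchanges histone variants, had 7 higher, 3 lower and 10 not passing of its 20 genes. The paired AAA+ ATPase genes Ruvbl1 (8.73 ± 1.90 to 21.5 ± 7.75 CPM) and Ruvbl2 (94.9 ± 5.73 to 129 ± 5.62) rose. Ino80d fell from 76.6 ± 11.2 to 35.7 ± 2.78 CPM (-1.10 ± 0.12) and Ep400, a large SNF2-type ATPase, from 637 ± 15.3 to 499.7 ± 29.3. Without wild-type replicate 1 or 3, or with GC and length corrected, 3 of this list rose. Of 12 other SNF2 ATPases 1 rose, 6 fell and 5 did not pass, with a median of -0.24. The gene that rose, Zranb3, did not pass without wild-type replicate 1, 2 or 3 (adjusted p = 0.0712, 0.0642 and 0.0622). Hells, needed for DNA methylation of repeats, fell from 35.1 ± 2.69 to 14.2 ± 1.22 CPM (-1.31 ± 0.12, adjusted p = 0.000106), Shprh from 47.9 ± 1.61 to 27.7 ± 2.11, Hltf from 21.9 ± 2.64 to 13.0 ± 0.631 and Atrx from 109 ± 4.97 to 78.7 ± 8.22. Atrx did not pass with GC and length corrected (adjusted p = 0.330), where 3 of the 12 fell.

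Other ARID genes and SIN3 partners, the complex that holds the ARID4 proteins, had 7 higher, 4 lower and 3 not passing of its 14 tested genes. Ing1 (172 ± 4.59 to 265 ± 28.2 CPM) and Sap30 (135 ± 5.68 to 187 ± 6.34) rose, and Brms1l (19.0 ± 0.961 to 7.71 ± 0.885) and the ARID-domain demethylase gene Kdm5c (36.8 ± 2.60 to 22.2 ± 2.28) fell. The 4 that fell include Kdm5d, which lies on the Y chromosome and has Kdm5c as its X-linked counterpart, so its 28 to 58 counts in wild type and 11 to 22 in knockout are uncertain in female cells. The number of this list that rose was 3 without wild-type replicate 3 and 4 with wild-type replicate 1, wild-type replicate 2 or knockout replicate 1 left out. The number that fell was 2 with replicate 1 or 2 of either genotype left out, or with GC and length corrected.

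**Figure D4:**
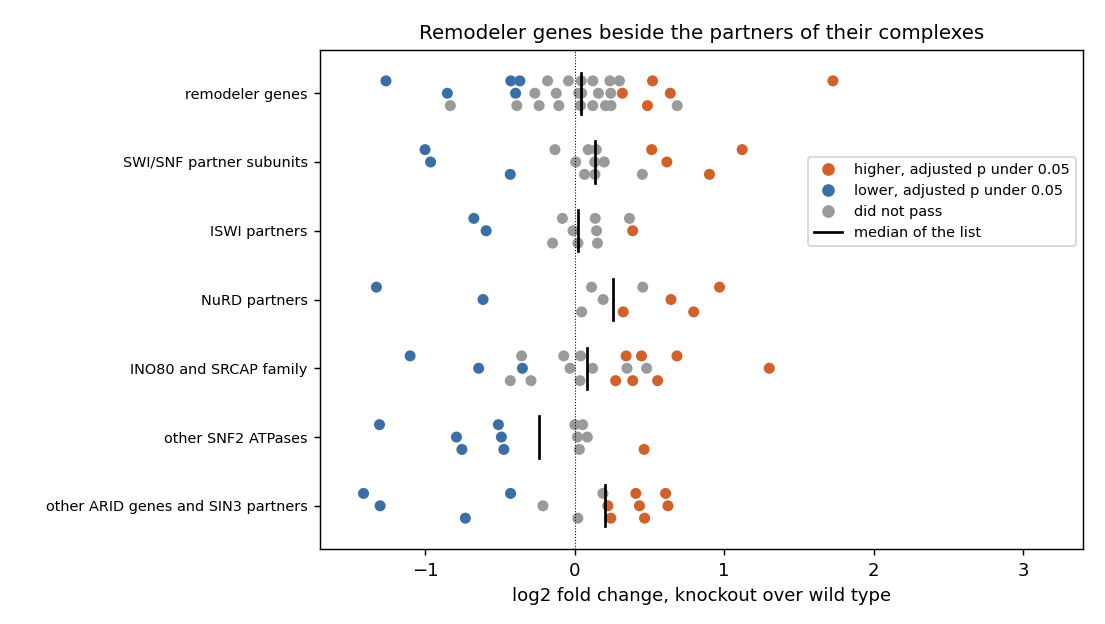
Log2 fold change of each tested gene among the 31 remodeler genes and 6 lists of complex partners (points: orange, higher; blue, lower; grey, did not pass; black bars, list medians; vertical offsets only separate points). Medians lie between -0.24 for the other SNF2 ATPases and 0.26 for the NuRD partners, and every list has genes on both sides of 0.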

How the data were processed

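PolyA RNA libraries (QIAseq FX Single Cell RNA Library Kit, per the labels) of mouse GV oocytes (3 wild type, 3 Zar1 knockout) were grouped by genotype and replicate number from the labels. Values are raw gene counts as deposited, in a table for each library. The submitters' processing notes name the build mm39 and HTSeq 0.13.5, STAR 2.7.8a, cutadapt 2.8 and bcl2fastq 2.20.0.422. No source used here gives the annotation release or strand setting, so counts of overlapping genes are uncertain. Ensembl IDs matched a symbol in 52093 of 53700 rows. Rows without one held at most 0.256% of a library's gene counts. Summary rows were left out: 4.84% to 5.70% of reads outside genes, 4.21% to 4.42% in more than 1 gene, 13.9% to 14.99% with more than 1 alignment.

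The test on counts was that of edgeR 4.0.16 under R 4.3.3 (factors by TMM, filterByExpr, glmQLFit, glmQLFTest, genotype only, two-sided, Benjamini-Hochberg over all tested genes), after checking the script on simulated data. Standard errors are the absolute log2 fold change over the root of F. Per-length levels use the longest complete protein-coding transcript of GENCODE M21 (GRCm38, so no coordinates are given). Paralog shares were tested with scipy 1.17.1. No 2 libraries were alike enough to be duplicates: the chi-square ratio within a genotype was at least 12.8. Alternatives were other scaling factors, filters, DESeq2 1.42.0, limma 3.58.1 (voom), a replicate block, libraries left out, no mitochondrial genome, stricter thresholds and a GC and length correction.

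Members and lists were chosen with earlier results of these data known. Text names all members, those called and the 5 most abundant per length in every library, and up to 4 called genes with the smallest adjusted p per partner list, or the 2 with the smallest p where fewer than 2 passed. Mta2, Kdm5d, Zranb3, Actl6a, Pbrm1, Brd7, the BCL7 family and the tests of members that passed under alternatives alone were named after their values were seen.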

Additional observations from a re-analysis of the deposited data

How the results depend on the processing

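None of the 10 called members changed sign in any of the 20 alternatives, and 2 (Arid5a and Chd5) kept their call in all. The stricter threshold and the test against a 1.5-fold change keep the main log2 fold changes, so neither could change a sign. Called members were also picked for lying far from 0 in the same libraries, which favours kept signs. Against a 1.5-fold change 1 member rose and 1 fell, with 4 and 4 partners and 1484 genes in all. At an adjusted p of 0.01, 2 members rose and 4 fell, with 13 and 14 partners and 3032 genes in all. Upper-quartile factors gave 9 members higher and 4 lower, and the GC and length correction 8 higher and 2 lower, with 5591 and 5124 genes in all. Leaving out 1 library gave 2 to 6 members higher and 4 to 6 lower, and 13 to 23 partners higher and 15 to 18 lower. In the same fits 3826 to 5634 genes were called in all, against 5499 in the main test. Of the 21 uncalled members 8 passed in at least 1 alternative.

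Sign changes were seen only in members that did not pass, with main log2 fold changes from -0.12 (Smarcad1) to 0.12 (Arid3b). Members that near 0 change sign most easily, so this does not speak for the calls. Without wild-type replicate 1 the log2 fold change was 0.118 for Chd3, -0.0894 for Chd1, -0.0439 for Smarcc1 and -0.0177 for Smarcal1. Without wild-type replicate 3 it was 0.0439 for Chd3 and 0.0580 for Smarca4, and without knockout replicate 2, 0.00191 for Smarca4. Without knockout replicate 3 it was -0.0309 for Arid3b, -0.0828 for Chd1, -0.0882 for Smarcal1 and -0.00881 for Smarcd2. After the GC and length correction it was 0.18 for Smarcad1 and -0.11 for Smarcd2. It was 0.0082 for Smarca4 under upper-quartile factors, and for Smarcal1 -0.00901 with no factors and -0.0394 in limma-voom with quality weights. With 1 library left out, the log2 fold change ran from -0.0309 to 0.251 for Arid3b, -0.0894 to 0.181 for Chd1, -0.431 to 0.118 for Chd3, -0.106 to 0.0580 for Smarca4, -0.0439 to 0.126 for Smarcc1, -0.0882 to 0.122 for Smarcal1 and -0.00881 to 0.116 for Smarcd2. The share of Arid1a in its pair changed by -4.88 to 2.04 percentage points (2.04 without knockout replicate 2) and that of Smarca1 by -0.0717 to 0.0595. The causes were not tested.

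Libraries with the same replicate number did not deviate together (correlations of deviations across genes -0.00898, -0.0420 and -0.0252 for numbers 1, 2 and 3), so the number is not taken as a pairing. With the replicate number as a block 4 members rose and 4 fell, with 18 and 17 partners and 4838 genes in all, Arid5b (adjusted p = 0.0591) and Chd8 (0.0739) losing their calls. Of 460 values of the 23 named partners under alternatives, 17 lost the call, 15 of them against a 1.5-fold change, and 0 changed sign. These 23 had the smallest adjusted p of their lists, so the choice itself favours kept calls. The called partners Bcl7a, Bcl7b, Actl6a, Mta2, Zranb3 and Kdm5d are not in this count. Bcl7a, Mta2 and Zranb3 each lost the call in several alternatives. Depth limits Smarcd1, Chd2, Arid3c and the 4 untested members, where a few reads decide a fold.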
